A study of Homo sapiens with 8 samples.

Results

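The genes described here are the nuclear genes of the mitochondrial ribosome and of oxidative phosphorylation. They were read for the alternative poly(A) sites that were listed for each of them from 3′-end sequencing of breast cancer cells. Members were chosen by symbol, as genes beginning with MRPL or MRPS and a digit, NDUF, SDHA to SDHD, UQCR, UQCC, COX and a digit, or ATP5. Of 7504 genes listed in either of 2 deposited tables, 86 were members, with 37 genes of the mitochondrial ribosome and 49 of the respiratory complexes. The antisense gene COX10-AS1 and the pseudogene MRPL45P2 also fitted the symbols and were set aside.

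Poly(A) sites had been profiled in 8 samples, 2 in each of 4 groups. The first 2 groups were MDA-MB-231, a triple-negative human breast cancer cell line that is poorly metastatic, and MDA-LM2, its lung-metastatic derivative. The other 2 groups were MDA-MB-231 cells with the CRISPR interference repressor dCas9-KRAB. They carried either a control guide (sgControl) or a guide against HNRNPC (sgHNRNPC), a nuclear protein that binds runs of U in RNA. The cells of the guide experiment had been transduced with lentivirus, sorted for the repressor's fluorescent marker and selected with puromycin. All 4 groups therefore descend from 1 tumour line, and per the study's methods the sequencing experiments were run as biological duplicates.

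The 2 tables are named here after the group set against its control: the MDA-LM2 table for MDA-LM2 and MDA-MB-231 cells, and the sgHNRNPC table for sgHNRNPC and sgControl cells. Each lists pairs of poly(A) sites of a gene, one proximal and one distal, for 6541 and 6801 genes. The change that the authors estimated for each pair is not used here, so what follows says which alternative ends were listed and not whether their use changed. The level of HNRNPC, the depth of each sample and the marker genes of the cells were not analysed here. What decided that a site was listed is not given in the sources used here. A gene needs 2 sites to be listed, and a site that is missing from a table is not shown to be unused.

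The mitochondrial ribosome translates the few proteins that the mitochondrial genome encodes, all of them subunits of the respiratory chain or of ATP synthase. Complexes I to IV pass electrons from NADH and succinate to oxygen and most of them pump protons, and complex V uses the proton gradient to make ATP. Most of their subunits are encoded in the nucleus, so each is made from an mRNA that is cleaved and polyadenylated, usually a short way after a hexamer such as AATAAA. A gene with several such places can make mRNAs that differ in the 3′ UTR or in the protein's C-terminus.

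Examples of the listed ends are shown first. Sites in the tables were given either as a genomic position or as the end of an annotated transcript, and the 2 kinds were not matched to each other. Of the 123 transcript ends of members, 116 could be placed on GRCh38, where the same transcript and version exists in GENCODE release 44. The sequences are the last 30 bases up to the end of the transcript, read on the transcript's strand from GRCh38. Capitals mark AATAAA or, failing that, ATTAAA, searched in these letters on the transcript's strand only. The first set shows the pairs of ends of ribosomal protein genes in which both transcripts are annotated as protein coding, proximal end first. In each of them the annotated reading frames of the 2 transcripts end at different places, but MRPL17-203, MRPL3-210 and MRPL48-207 are tagged in the annotation as transcripts whose 3′ end was not found.
MRPL35-204, chr2:86211016-86211045, plus strand: atgtgccagggaattcaggaaccacctcac
MRPL35-202, chr2:86213761-86213790, plus strand: ttaaatgtgaAATAAAcagtgatactttca
MRPL21-208, chr11:68892492-68892521, minus strand: gaccccacctcgctccccttctcctccacc
MRPL21-201, chr11:68891278-68891307, minus strand: ggataaaAATAAActcctgcttcccaagga
MRPL3-210, chr3:131487681-131487710, minus strand: caggacagtatgtggatgtcacagccaaaa
MRPL3-201, chr3:131462212-131462241, minus strand: aaaggaaagacAATAAAatcataaattatc
MRPL48-207, chr11:73844952-73844981, plus strand: ctctctccATTAAAgtcgaggaaaggtatg
MRPL48-202, chr11:73864570-73864599, plus strand: atcttccatctAATAAAaatctgctgcaga
MRPL17-203, chr11:6682149-6682178, minus strand: caggcaaagccaggaagcaagcaaccacag
MRPL17-201, chr11:6680385-6680414, minus strand: gacactgcttcccctttaatgttttggtcc

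The second set shows the 5 genes of the respiratory complexes whose 2 ends follow the same last coding position, so that both ends lie in the 3′ UTR. Both ends of SDHD, NDUFC2 and NDUFB5 carry a hexamer, whereas in NDUFS1 only the distal end does and in ATP5F1A only the proximal end does.
SDHD-202, chr11:112095359-112095388, plus strand: ctcttaattcatgAATAAAaactttgcaga
SDHD-201, chr11:112095765-112095794, plus strand: tatatAATAAAagtgtcttctatgctttta
NDUFC2-205, chr11:78069856-78069885, minus strand: tgacaccttgtaATTAAAatacgtaccatg
NDUFC2-201, chr11:78068297-78068326, minus strand: ttctgcAATAAAtaataggtttatagttca
NDUFB5-210, chr3:179624062-179624091, plus strand: aagtatattctctttattggaaAATAAAtt
NDUFB5-214, chr3:179627618-179627647, plus strand: cctaaatAATAAAtattctcctgaacccca
NDUFS1-209, chr2:206123945-206123974, minus strand: aactatgcagatgctcttaaaagcattgat
NDUFS1-201, chr2:206114817-206114846, minus strand: gcagatacAATAAAaacttaattgtgatta
ATP5F1A-220, chr18:46084144-46084173, minus strand: tgaaaAATAAAggttccataatgcatagtt
ATP5F1A-202, chr18:46080248-46080277, minus strand: tgtattttaaaaactatttgttaactgtaa

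The last set shows the ends of the reference transcripts of 4 of the 7 genes whose reference end was listed in the sgHNRNPC table but not in the MDA-LM2 table, although the gene was in both. Those of MRPL17 and ATP5F1A, shown above, belong to the same 7. Here and below the reference transcript is the one that Ensembl marks as canonical.
MRPS25-201, chr3:15048512-15048541, minus strand: aatcAATAAAtgttgaacattttttttcta
NDUFA5-207, chr7:123536997-123537026, minus strand: gtttgaatataaatttattatgtaaccaaa
ATP5F1E-201, chr20:59025475-59025504, minus strand: ctcttcagaAATAAAgatcagaagactgca
ATP5PB-202, chr1:111462744-111462773, plus strand: caaattgATTAAAcaaaaaattataaaaca

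To see how much of each machine was listed, the listed members were set beside the protein-coding genes of GENCODE release 44 whose names fit the same symbols. UQCC5 and UQCC6, 2 complex III assembly factors that the tables hold under older symbols, were left out. A gene that was not listed is not shown to lack alternative ends. In the mitochondrial ribosome 37 of 78 genes were listed in at least 1 table, or 47.4% (95% Wilson interval 36.7 to 58.4). In the respiratory complexes 49 of 115 genes were listed, or 42.6% (34 to 51.7). Of all protein-coding genes 36.2% were listed, a share that also holds the genes these cells do not express. The intervals cover counting error only and treat genes as independent.

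Counted by symbol, 22 of 49 genes of the large ribosomal subunit and 15 of 29 of the small subunit were listed. The symbols follow older usage. For example, the products of MRPS30 and MRPS18A are known to sit in the large subunit. NDUFA4, counted by its symbol under complex I, is known as a subunit of complex IV. These are examples, and whether every other product belongs to the module of its symbol was not checked. Complex I, the NADH dehydrogenase, had 21 of 48 genes listed and complex II, the succinate dehydrogenase, had 5 of 8. Complex III, the cytochrome c reductase, had 7 of 13 without UQCC5 and UQCC6, complex IV, the cytochrome c oxidase, had 9 of 26, and complex V, the ATP synthase, had 7 of 20. The intervals of these shares overlap one another, the lowest being 34.6% (19.4 to 53.8) for complex IV and the highest 62.5% (30.6 to 86.3) for complex II. Sorted by symbol, structural subunits of the respiratory complexes had 36 of 88 genes listed and assembly factors 13 of 27. UQCC5 and UQCC6 were again left out. ATP5IF1 was counted with the assembly factors. The readthrough genes NDUFC2-KCTD14 and ATP5MF-PTCD1 were counted with the subunits of complexes I and V. None of these was listed.

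The catalytic subunit of complex II, SDHA, was in neither table, whereas its membrane anchors SDHC and SDHD were in both. The core subunits UQCRC1 and UQCRC2 of complex III were likewise in neither. These 3 genes were picked after the lists had been seen.

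**Figure D1:**
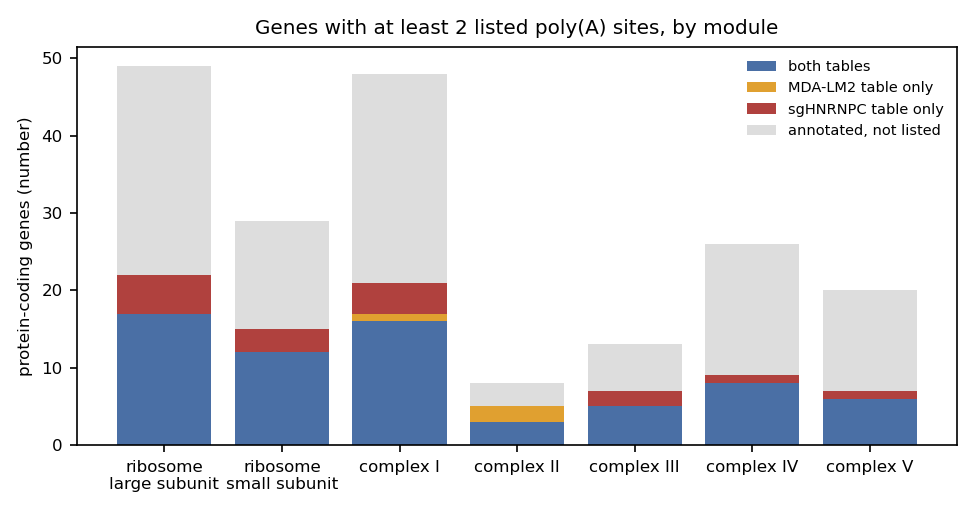
Number of protein-coding genes of each module (bars) that were listed in both tables, in the MDA-LM2 table only, in the sgHNRNPC table only, or annotated but not listed. The large subunit of the ribosome and complex I hold the most listed genes, 22 and 21, and genes listed in the MDA-LM2 table only occur in complexes I and II.

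The sgHNRNPC table held more members than the MDA-LM2 table, 83 against 70, and 67 genes were in both. The 67 shared genes were 95.7% of the members in the MDA-LM2 table and 80.7% of those in the sgHNRNPC table. Over all listed genes these shares were 89.3% and 85.8%. No ribosomal protein gene was listed in the MDA-LM2 table only, while 8 were listed in the sgHNRNPC table only. The first 5 of these in alphabetical order are MRPL2, the counterpart of a conserved bacterial ribosomal protein, MRPL28, MRPL48, MRPL49 and MRPL55, each with 2 sites.

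In the respiratory complexes 3 genes were listed in the MDA-LM2 table only. They are NDUFS6, a subunit of complex I, SDHAF2, which attaches the flavin cofactor to SDHA, and SDHB, the iron-sulfur subunit of complex II, each with 2 sites. A further 8 genes were in the sgHNRNPC table only. Among these ATP5F1B, the catalytic beta subunit of ATP synthase, had 3 sites, and COX10, which makes the heme A precursor of complex IV, had 2. The 2 tables come from separate pairs of cell populations, and a difference in depth between them cannot be told apart from a difference between the cells.

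Most members had few sites. Over both tables the 86 genes had 249 distinct sites, with a median of 2 per gene, against a median of 3 over all listed genes. Genes with exactly 2 sites made up 67.1% of members in the MDA-LM2 table, where they were 47.1% of all listed genes. In the sgHNRNPC table they made up 60.2% of members, against 45.0% of all listed genes. These shares are a description and were not tested. Of the 86 members 9 had 5 or more distinct sites, 4 in the ribosome and 5 in the respiratory complexes. Over all listed genes 1384 of 7504 had 5 or more.

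**Figure D2:**
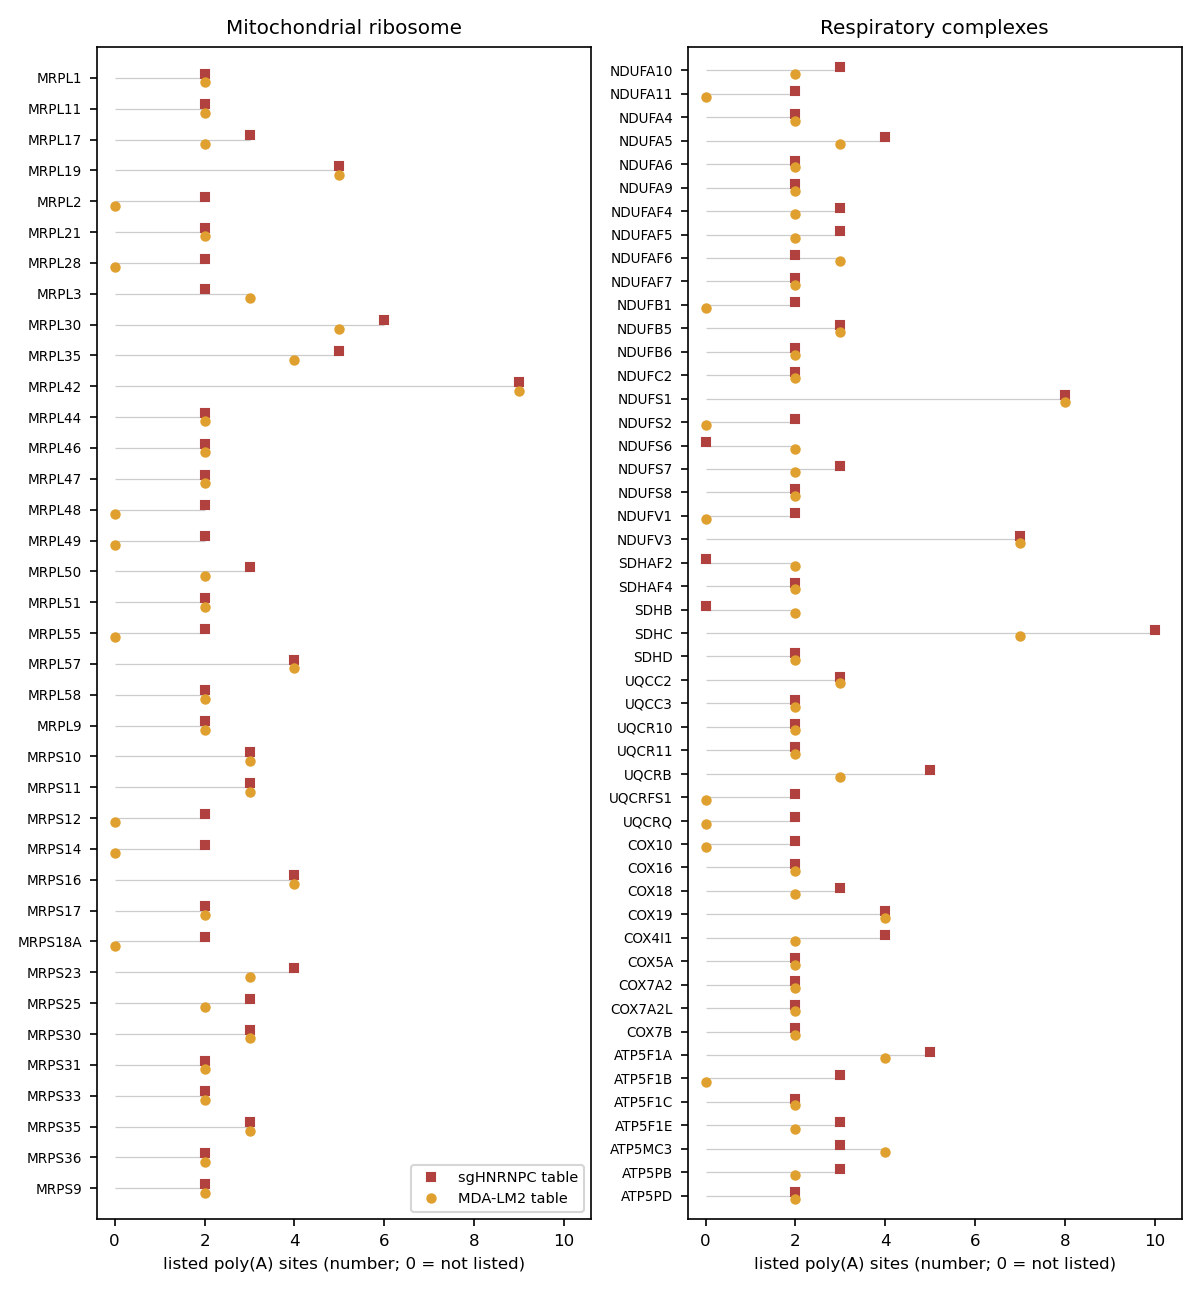
Number of listed poly(A) sites of each member in the MDA-LM2 table (circles) and the sgHNRNPC table (squares), with the mitochondrial ribosome on the left and the respiratory complexes on the right. In each table most of the listed genes sit at 2 sites, and SDHC, MRPL42, NDUFS1 and NDUFV3 reach 7 or more.

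MRPL42, a protein of the large ribosomal subunit, had the most sites among ribosomal protein genes. Its 9 sites were the same in both tables, and all were given as genomic positions. Whether any of them is also the end of an annotated transcript was not checked, because their build is not named. They spanned 11387 nt, and neighbouring positions were between 418 and 4254 nt apart.

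MRPL30 and MRPL19, also large-subunit proteins, each had 6 distinct sites, of which 5 were genomic positions. MRPL30 had 5 sites in the MDA-LM2 table against 6 in the sgHNRNPC table, and the added site was a genomic position next to the most distal end. MRPL19 had 5 sites in each table, and the tables differed in the fourth site. In both genes the most distal site was the end of the reference transcript. MRPL35 followed with 4 and 5 sites, again with the reference end as the most distal one.

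In the small subunit no gene had more than 4 sites. MRPS16 had the same 4 sites in both tables, 3 of them genomic positions spread over 1473 nt, and its most distal site lay 6 nt beyond the reference end. MRPS23 had 3 sites in the MDA-LM2 table against 4 in the sgHNRNPC table. MRPS10 and MRPS11 had 3 each, the same in both tables.

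SDHC, a membrane anchor of succinate dehydrogenase, had the most sites of all members, with 7 in the MDA-LM2 table against 10 in the sgHNRNPC table. The 7 were all among the 10. Of the 10 sites 8 were genomic positions, which spanned 9910 nt. One of the remaining ends belongs, in the annotation used here, to a lncRNA that ends 8758 nt beyond the SDHC reference transcript. That end and 1 genomic position beyond it were the most distal sites listed for SDHC in both tables. The other members of complex II had 2 sites each.

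NDUFS1, the largest subunit of complex I and an iron-sulfur protein, had the same 8 sites in both tables. NDUFV3, an accessory subunit of the NADH-binding module, had the same 7. In NDUFS1 the order from proximal to distal began with NDUFS1-209 and ended with the reference end NDUFS1-201, 9128 nt further on, with 5 genomic positions and NDUFS1-207 between. In NDUFV3 the proximal end NDUFV3-204 lay 9368 nt before the reference end NDUFV3-202, in an internal exon of the reference transcript. NDUFA10 and NDUFA5, accessory subunits of complex I, had 4 distinct sites each. NDUFA10 shared only 1 of its 4 sites between the tables.

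In complex III, UQCRB, which binds ubiquinone, had 3 sites in the MDA-LM2 table against 5 in the sgHNRNPC table, all genomic positions and spanning 3752 nt. The assembly factor UQCC2 had 3 sites, and UQCC3 and UQCR10 had 2. In complex IV the copper delivery factor COX19 had the same 4 sites in both tables, whereas COX4I1, a regulatory subunit, had 2 and 4, and COX18, a membrane insertase, had 2 and 3. In complex V the alpha subunit gene ATP5F1A had 4 and 5 sites and ATP5F1E, the epsilon subunit, had 2 and 3. ATP5MC3, one of the genes for the membrane ring subunit c, had 4 sites in the MDA-LM2 table against 3 in the sgHNRNPC table.

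For gaps, the genomic positions of a gene were pooled over both tables, and transcript ends lying between them were passed over. All 62 gaps between neighbouring genomic positions of members were at least 402 nt wide, with a median of 755 nt and a maximum of 8680 nt. These gaps are therefore not the spacing of all listed sites. In ATP5F1A, which has the widest gap, transcript ends rank between the 2 positions. Over all listed genes 99.8% of 5929 gaps were 400 nt or more, with a median of 791 nt. In the ribosome the median gap was 494 nt over 29 gaps and in the respiratory complexes 805 nt over 33 gaps. Gaps under 500 nt were 15 of 29 in the ribosome, or 51.7%, and 27.3% in the respiratory complexes, against 27.8% over all listed genes, and these shares were not tested.

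For genes in both tables the lists of sites were mostly the same. Of the 67 genes, 45 (67.2%) had exactly the same sites in both tables, against 53.3% of all genes that were in both. In the ribosome 21 of 29 genes were the same and in the respiratory complexes 24 of 38. A further 18 genes had more sites in the sgHNRNPC table and 3 had fewer, and MRPL19 had the same number of sites but not the same sites. Of all genes in both tables, 1479 had more sites in the sgHNRNPC table and 876 had fewer, out of 5838.

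The sites of these 67 genes that were in the sgHNRNPC table only numbered 24, with 13 genomic positions and 11 transcript ends. Those in the MDA-LM2 table only numbered 5. As shares, 88.3% of the sites of these genes in the sgHNRNPC table and 97.3% of those in the MDA-LM2 table were in the other table too, against 87% and 91.5% over all genes in both tables. Of the 11 transcript ends, 7 were the most distal site of the gene. All 7 are reference ends, and 6 of them are among the sequences above: MRPL17, MRPS25, NDUFA5, ATP5F1A, ATP5F1E and ATP5PB. In ATP5F1A the added end lay 3896 nt beyond ATP5F1A-220, the end nearest to it among placed ends. A reference end listed in the MDA-LM2 table only was found in 1 gene, NDUFA10. Counting ends within 25 nt of the reference end, 10.4% of members in both tables had one in the sgHNRNPC table only and 1.49% in the MDA-LM2 table only. Over all genes in both tables these shares were 4.71% and 1.27%.

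The most distal site of a gene was more often given as the end of an annotated transcript than as a genomic position. In the MDA-LM2 table the most distal site was a transcript end in 54 of 70 members, or 77.1%, against 89.1% of all listed genes. In the sgHNRNPC table it was one in 73 of 83 members, or 88.0%, against 91.8%. For the ribosome and the respiratory complexes these shares were 82.8% and 73.2% in the MDA-LM2 table, against 94.6% and 82.6% in the sgHNRNPC table. Only genomic positions were listed for 5 members, or 5.81%, against 3.48% of all listed genes. They are MRPL42, MRPS33, NDUFA4, NDUFA9 and UQCRB, of which MRPS33, NDUFA4 and NDUFA9 were picked after their sites were seen.

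The placed ends were then read against each gene's reference transcript. Of the 116 placed ends of members, 56 (48.3%) were the reference end itself, against 37.5% of 11678 placed ends over all listed genes. A further 29 lay in the 3′ UTR within the last exon, 14 in an internal exon, 6 in an intron and 8 beyond the reference end. Ends inside the gene body, in an intron or an internal exon, were thus 20 of 116, or 12.1% in internal exons and 5.17% in introns. In all listed genes these were 23.5% and 4.43%.

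By transcript type, 77 of the 116 ends belonged to transcripts annotated as protein coding, 13 to targets of nonsense-mediated decay and 11 to transcripts with a retained intron. A further 14 belonged to transcripts of coding genes with no defined reading frame, and 1 to the lncRNA listed under SDHC. Of the 116 ends, 8 carry the annotation tag for a 3′ end that was not found, among them MRPL3-210, MRPL17-203, MRPL48-207, ATP5F1A-208, COX4I1-209 and 2 ends of ATP5F1B. For these the position is where the evidence for the transcript stops and need not be a poly(A) site. The tag was on 6.90% of the ends of members and on 11.6% of those of all listed genes.

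Distances between 2 placed ends of a gene could be measured for 43 pairs in 31 members. The median was 1516 nt over 15 pairs of 15 genes in the ribosome and 3356 nt over 28 pairs of 16 genes in the respiratory complexes. A gene with more than 2 placed ends gives several pairs that overlap, so pairs are not independent and the medians are not per gene. For all listed genes it was 6672 nt over 6538 pairs. In 28 of the 43 pairs at least 1 end was not of a protein-coding transcript, a share of 65.1% against 66.2% over all listed genes.

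**Figure D3:**
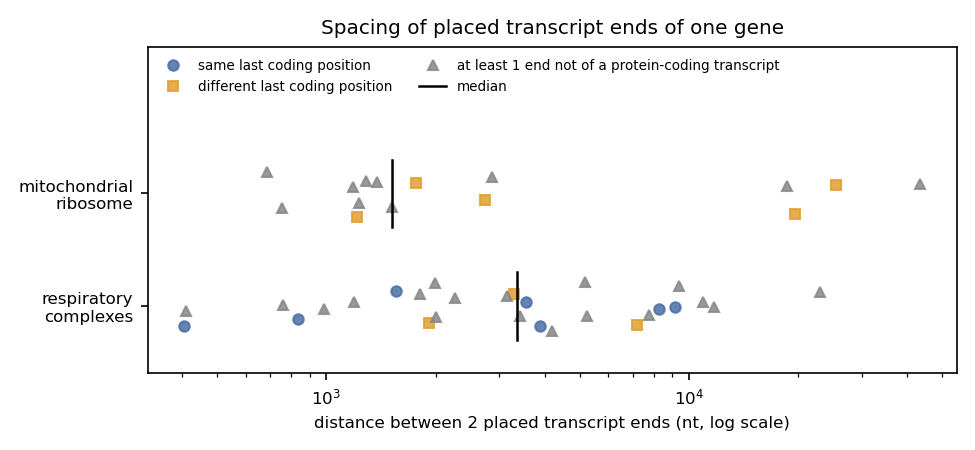
Distance in nt between 2 placed transcript ends of 1 gene (horizontal axis, log scale) for members of the mitochondrial ribosome and of the respiratory complexes, 1 point per pair, spread vertically only for legibility. Circles mark pairs of protein-coding transcripts with the same last coding position, squares those with different ones and triangles pairs with an end of another transcript type. The medians, at 1516 and 3356 nt, are the black lines, and circles occur in the respiratory complexes only. Genes with more than 2 placed ends give several points.

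Among pairs in which both transcripts are protein coding, the last coding position was compared. In the ribosome all 5 such pairs changed the last coding position, in MRPL35, MRPL21, MRPL17, MRPL3 and MRPL48. In the respiratory complexes 7 of 10 pairs kept it. The 10 pairs come from 6 genes, and NDUFS1 gives several of the 7. Exons further upstream were not compared. Over all listed genes 32.4% of 2210 pairs kept it. Transcripts tagged with an incomplete end may lack their stop codon, and without them 0 of 2 pairs in the ribosome, 7 of 8 in the respiratory complexes and 75.3% of 941 over all listed genes did. With 2 pairs left, nothing can be read from the ribosome's count.

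Among these pairs of protein-coding transcripts, the narrowest spacing in the ribosome was 1214 nt in MRPL21, where the proximal end lies in an intron of the reference transcript. MRPL17 followed with 1764 nt and MRPL35 with 2745 nt. The widest of these pairs was 25469 nt in MRPL3, between an incomplete end in an internal exon and the reference end, and MRPL48 had 19618 nt. MRPL35-204 lay in the last exon of the reference transcript, although its reading frame ends elsewhere.

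In the respiratory complexes, again among pairs of protein-coding transcripts, SDHD had the narrowest spacing, 406 nt, between 2 ends in the same last exon. NDUFC2, a membrane-arm subunit of complex I, had its ends 1559 nt apart, and COX7B, a small subunit of complex IV, had them 1915 nt apart with different stop codons. NDUFS1 had the widest of these pairs, 9128 nt, followed by ATP5F1A with 7179 nt and NDUFB5, another membrane-arm subunit, with 3556 nt. The ATP5F1A pair starts at the incomplete end ATP5F1A-208 and has different last coding positions. ATP5F1A-220 and ATP5F1A-202, which share the last coding position, were 3896 nt apart. In NDUFS1 another end, NDUFS1-207, lay 834 nt after NDUFS1-209, and all 3 share the last coding position. The 2 shorter transcripts of NDUFS1 and the proximal end of NDUFB5 lie in the last exon of the reference transcript, so the reference transcripts run on in that exon for between 3556 and 9128 nt.

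A poly(A) hexamer near a listed end is the plainest sequence feature to compare. AATAAA or ATTAAA began within the 40 nt before the end in 30 of 49 placed ends of the ribosome, or 61.2% (47.2 to 73.6), and in 39 of 67 of the respiratory complexes, or 58.2% (46.3 to 69.3). Among all listed genes the share was 47.7% of 11678 ends. Where a hexamer was found, its first base lay a median of 23 nt from the end in members and in all listed genes alike. Most were AATAAA, at 56 ends of members against 13 with ATTAAA only.

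By kind of end, reference ends carried a hexamer in 47 of 56 members, or 83.9%, against 82.3% over all listed genes. In the 3′ UTR of the last exon 18 of 29 ends carried one, or 62.1% (44 to 77.3), against 42.1%. Ends in an intron or an internal exon carried one in 1 of 20, the incomplete end MRPL48-207, or 5.00% (0.888 to 23.6), against 6.86%. Reference ends without a hexamer in this window included MRPL17-201, NDUFA5-207 and ATP5F1A-202, whose last 30 bases are shown above. The absence of these letters says nothing about whether the end is used.

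**Figure D4:**
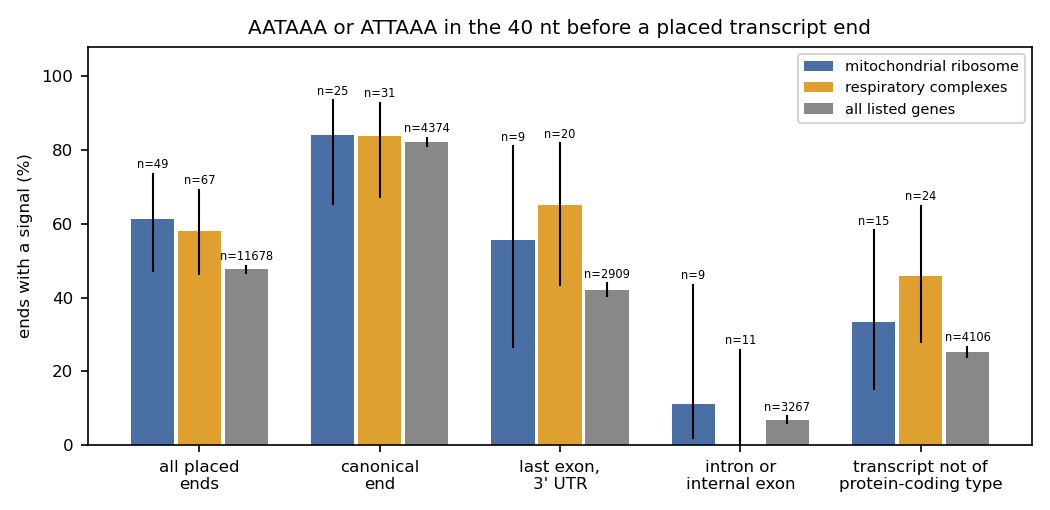
Percent of placed transcript ends with AATAAA or ATTAAA in the 40 nt before the end (bars), for the mitochondrial ribosome, the respiratory complexes and all listed genes, by place of the end in the reference (canonical) transcript. Lines are 95% Wilson intervals and n is the number of ends. Reference ends stand at 82.3 to 84.0% in all 3 groups, and ends in introns or internal exons at 11.1% or below.

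HNRNPC binds runs of U, so runs of T in the DNA around the ends were counted. A run of at least 5 T on the transcript's strand lay within 100 nt on either side of 27 of 49 ends of the ribosome, or 55.1% (41.3 to 68.1), and of 34 of 67 of the respiratory complexes, or 50.7% (39.1 to 62.3). Among all listed genes the share was 52.1% of ends. Both intervals hold the share of all listed genes. The longest run of T near an end of a member was 27 bases, at COX7B-203, and NDUFV3-203 had one of 23. A run of T is a description of the sequence and not a binding site.

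Some ends lie inside other genes. Of the 116 placed ends, 33 lay within another annotated gene, 16 on the same strand and 22 on the opposite strand, with some in both. Examples among the genes named are both ends of MRPL49 inside SYVN1 on the opposite strand and both ends of NDUFC2 inside the readthrough gene NDUFC2-KCTD14 on the same strand. Reads at such ends could be shared with the other gene where the strand is the same.

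Genes of the same machinery whose symbols lie outside the rule were looked up in the same way. Of 8 further genes of the mitochondrial ribosome and its assembly, 5 were listed in each table: DAP3, GADD45GIP1, PTCD3, MTG1 and MTG2. PTCD3, a protein of the small ribosomal subunit, had 8 sites in the MDA-LM2 table against 7 in the sgHNRNPC table. Of 24 further genes of the respiratory chain, 13 were listed in the MDA-LM2 table against 11 in the sgHNRNPC table. CYCS, which encodes cytochrome c, had 5 and 4 sites. The complex IV assembly factor SCO1 had 6 and 7, and LRPPRC, which stabilizes mitochondrial mRNAs, had 6 and 5. The complex I assembly factors TMEM126B and FOXRED1 were in the MDA-LM2 table only, with 2 sites each.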

How the data were processed

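RNA 3′ ends of 8 samples were sequenced with QuantSeq REV. The authors took the distinct transcript 3′ ends of Gencode release 33, quantified them with Salmon 0.14.1, normalized the result and modelled every pair of poly(A) sites with their logistic regression method APAlog. Hg38 and UMI-tools are also named in the submitters' processing notes. The 2 deposited tables hold, for each pair, the authors' estimate of how usage of the proximal against the distal site changed, on a log scale, with a p-value and a q-value. These are results of the authors' own comparisons and were not used. The columns used were the 2 sites, strand, gene and symbol. The tables hold no value of a single sample, so depth is unknown and no groups were compared or tested.

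Members and lists were chosen with earlier results of these data known. Every listed gene had all combinations of its sites, in 1 consistent order, which gave each site's rank. Genomic positions lie in a build that the tables do not name. Only 12.7% fell within 5000 nt of their gene in GRCh38, so they were used for distances within a gene alone. Transcript ends were placed on GRCh38 with GENCODE release 44 by identifier and version. Hexamers were searched in 40 nt before the end and runs of at least 5 T within 100 nt on either side. Wilson intervals of 95% cover counting error only. Named genes were, per module, up to 4 with the most sites over both tables, with ties in alphabetical order. Per module group they were up to 5 listed in 1 table only, and up to 3 each with the widest and narrowest spacing of protein-coding ends. Python 3.11.15, pandas 2.3.3, scipy 1.17.1 and pysam 0.24.0 were used, and the search functions were tested on simulated data. A sequence and a transcript end of members are not reported here.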

Additional observations from a re-analysis of the deposited data

How the results depend on the processing

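No paired analysis was possible because no test was run and values of single samples are not among the data used. Counting transcript ends only, the mean of 2.87 sites per gene in the ribosome became 1.35 and that of 2.92 in the respiratory complexes 1.49, and counting genomic positions only they became 1.51 and 1.43. Requiring both tables lowered the listed share of the respiratory complexes from 42.6% to 33%. Among genes in both tables, the share of sgHNRNPC sites also in the MDA-LM2 table rose from 77.9% to 92.0% in the ribosome and from 74.6% to 85.5% in the respiratory complexes, and the share of MDA-LM2 sites of the latter from 91.7% to 97.1%. Counted as pairs, the shared part of the sgHNRNPC table was 64.6% in the respiratory complexes. With protein-coding ends only, the median spacing in the ribosome was 2745 nt in place of 1516 nt, and the share of pairs with the same last coding position in the respiratory complexes 70.0% in place of 25%. AATAAA alone was found at 46.3% of the ends of the respiratory complexes, and runs of at least 6 T near 32.7% of the ends of the ribosome and 26.9% of those of the respiratory complexes. All of these follow from how each alternative counts. The other alternatives moved the values by less than 1.5 times or within their intervals. Depth was not available, so how far the lists are limited by it is unknown.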

Other observations

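In GENCODE release 44, 3 pairs of member genes start within 1000 nt of each other on opposite strands. They are MRPL47 and NDUFB5 on chromosome 3, with starts 41 nt apart, MRPS11 and MRPL46 on chromosome 15, 63 nt apart, and NDUFS6 and MRPL36 on chromosome 5, 41 nt apart. Both genes of the first 2 pairs were listed in both tables, whereas NDUFS6 was listed in the MDA-LM2 table only and MRPL36 in neither. These pairs were looked for after the lists had been seen. The complex III assembly genes UQCC5 and UQCC6 were listed under the older symbols SMIM4 and C12orf73, which the choice by symbol does not reach.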
